A study of Homo sapiens with 6 samples.

Results

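The genes examined here are 10 markers that have been used to recognise or define breast cancer stem cells: ABCG2, CD44, CD24, PROM1, ALDH1A1, PROCR, EPCAM, ITGA6, KLF4 and BMI1. They were taken as the rows of the deposited gene table that carry these names, and each name was found in 1 row, so that 10 of 54644 gene rows are described. Their level was measured by sequencing of poly(A) RNA in SKBR3, a human HER2-positive breast cancer cell line derived from a mammary adenocarcinoma and labelled as epithelial. The control group (n = 3) carried the empty lentiviral vector pLVX and the CTTN group (n = 3) carried pLVX-CTTN, which encodes cortactin, a protein that binds and stabilises branched actin filaments. Both groups were infected with lentivirus and selected with puromycin, so both are stably infected populations rather than untouched cells. The labels call the 3 libraries of a group biological replicates without saying whether they were separate infections, and a difference between these infected populations that arose without CTTN cannot be told apart from one that came with it. The p-values therefore measure the spread between these libraries. The study asked whether CTTN gives HER2-positive cells the properties of cancer stem cells, and the comparison below addresses the RNA level of the markers.

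Cancer stem cells are tumour cells credited with self-renewal and the ability to seed a new tumour. In breast cancer they were first sorted as cells with much surface CD44 and little or no CD24, and later by the activity of aldehyde dehydrogenases, to which ALDH1A1 and ALDH1A3 contribute. The other markers belong to several classes, namely surface proteins (PROM1, EPCAM, ITGA6 and PROCR), a drug efflux pump that expels a dye from side-population cells (ABCG2), and nuclear regulators of self-renewal (KLF4 and BMI1). Most of these definitions rest on protein at the surface of single cells or on enzyme activity, neither of which was measured here. In bulk RNA a smaller fraction of marker-positive cells and less RNA in each cell cannot be told apart.

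CTTN itself was checked first. Normalised counts, that is fragments scaled by library as deposited, were 10912, 11228 and 11265 in the control libraries and 29088, 37144 and 18999 in the CTTN libraries. Every CTTN library was above every control library, and the log2 fold change was 1.35 (SE 0.22, adjusted p = 0.0249, edgeR quasi-likelihood test with Benjamini-Hochberg adjustment over all genes). Without control replicate 1, control replicate 2, control replicate 3 or CTTN replicate 1, the adjusted p was 0.138, 0.154, 0.142 and 0.123. Fits without CTTN replicate 2 or 3, which called 6953 and 1244 genes in all, gave 0.00182 and 0.000191 (edgeR). Libraries held 34887068 to 41279835 fragments in the gene table. CTTN replicate 3 stood apart from the other 5, with a median correlation with the other libraries, on log2 depth-scaled counts, of 0.978 against 0.991 to 0.995, a ribosomal protein share of 7.57% against 4.68 to 5.98%, and the lowest CTTN count of its group. The HER2 gene ERBB2 was at 1644 to 1790 FPKM (fragments scaled to transcript length and library size) in all 6 libraries, and the luminal keratin genes KRT8, KRT18 and KRT19 were at 751 to 3394 FPKM, whereas the epithelial cadherin gene CDH1 did not exceed 0.244 FPKM. Of the marker genes of other cells, PTPRC of leukocytes was at most at 0.199 FPKM, DCN of fibroblasts at 0.0562, PECAM1 of endothelium at 0.022 and the basal keratin gene KRT14 at 0.115. Other genes of these lists were expressed, and the summed levels in the control libraries were 3.51 to 4.44 FPKM for the fibroblast list, nearly all of it COL1A1, and 4.20 to 4.65 FPKM for the endothelial list, most of it CDH5.

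Across the 10 markers, PROCR rose and ABCG2 fell with CTTN, each by about 1 log2 unit, and none of the other 7 that were tested passed an adjusted p of 0.05. ALDH1A1 had too few counts to be tested. Of 14433 genes tested, 331 were higher (2.29%) and 275 were lower (1.91%) in CTTN cells, or 4.2% in all, against 1 higher and 1 lower of 9 tested markers. The number of genes called was not stable, since it was 2069 (14.3%) in DESeq2 and ran from 15 without control replicate 2 to 6953 (47.2%) without CTTN replicate 2. Fits without control replicate 1, control replicate 3 or CTTN replicate 1 called 29, 30 and 18 genes in all. Both markers were also among the 462 genes (3.2%) that were called and also changed by at least 1.5-fold. The groups did not overlap for 4 of the 9 (PROCR, ABCG2, CD44 and CD24), against 38.6% of all genes tested, with 3 of the 9 higher in every CTTN library (19.7% of all genes) and 1 lower (18.9%). The median log2 fold change was 0.08 over the 9 markers and 0.01 over all genes tested.

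**Figure D1:**
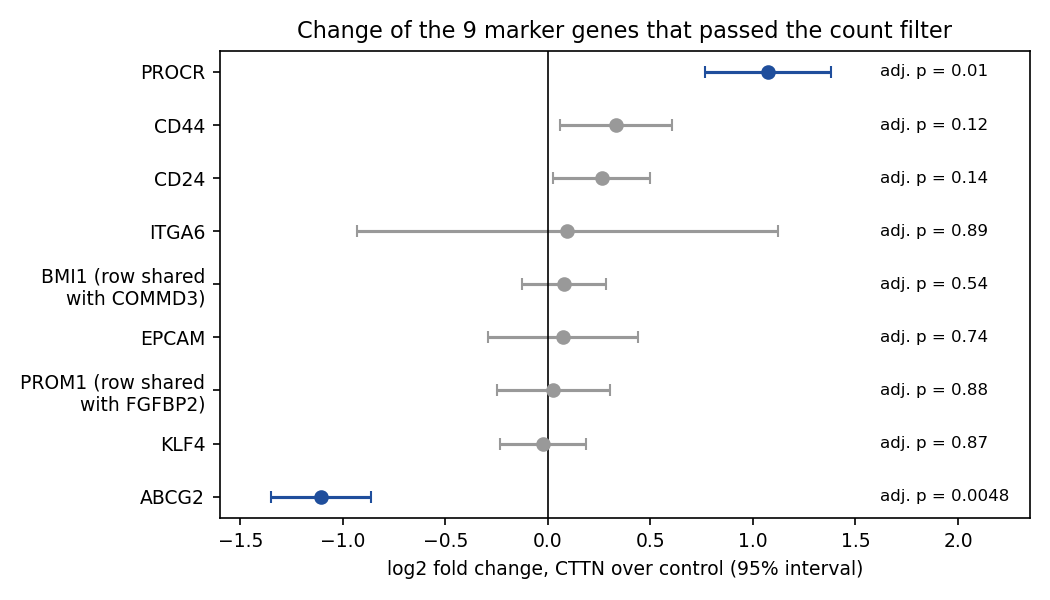
Log2 fold change of CTTN over control (horizontal axis) for the 9 marker genes that passed the filter on low counts, with 95% intervals from the edgeR fit and the Benjamini-Hochberg adjusted p at the right. PROCR at 1.07 and ABCG2 at -1.11 are coloured because their adjusted p is under 0.05, and the other 7 genes, in grey, lie between -0.02 and 0.33.

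The markers differed widely in level. On the FPKM scale CD24 was highest, with a mean level of 746 over the 6 libraries, above 99.5% of the 25834 genes with any FPKM. EPCAM followed at 155 FPKM, the row that holds BMI1 at 55.8 FPKM and PROCR at 35.5 FPKM. The BMI1 row is shared with COMMD3, so its rank is not that of BMI1 alone. BMI1-201, with 86.0% of the FPKM of BMI1's own isoforms, was at 13.5 to 17.5 FPKM, below the 21.1 to 54.0 FPKM of PROCR. KLF4 (3.41 FPKM), CD44 (2.54 FPKM), ABCG2 (1.85 FPKM) and PROM1 (1.71 FPKM) formed a low group, and ITGA6 (0.136 FPKM) and ALDH1A1 (0.0912 FPKM) were close to the limit of detection. CD24 and EPCAM did not overlap in any library, nor did EPCAM and the BMI1 row. The ranges over libraries of the BMI1 row and PROCR did overlap, because PROCR reached 54.0 FPKM in CTTN replicate 3, as did those of each neighbouring pair from KLF4 to PROM1 and those of ITGA6 and ALDH1A1. Of the classical pair, CD24, whose low surface level is part of the definition, was therefore the most abundant marker RNA, and CD44 was among the scarce ones.

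PROCR encodes the endothelial protein C receptor, a surface protein that binds protein C and activated protein C, and it marks a population of mammary stem cells in the mouse. Its row spans chr20:35172073-35284985 (GRCh38). Counts of PROCR were 1107, 899 and 895 in the control libraries and 2077, 1786 and 2248 in the CTTN libraries. The lowest CTTN library exceeded the highest control library, and the level rose from 22.8 ± 2.83 to 48.2 ± 6.35 FPKM (SD, n = 3 each). The log2 fold change was 1.07 (SE 0.13, 95% interval 0.76 to 1.38, adjusted p = 0.0104 by the edgeR quasi-likelihood test), or 2.10-fold. The size of the change was stable when 1 library was left out, with log2 fold changes of 1.0 to 1.18, but the call was not. Without control replicate 1, 2 or 3 or CTTN replicate 1 the adjusted p was 0.0523, 0.0881, 0.0796 and 0.0759, whereas without CTTN replicate 2 or CTTN replicate 3, the library that stood apart, it was 0.000645 and 0.00201. Within the CTTN group the order of PROCR, replicate 3 above 1 above 2, was the reverse of the order of CTTN, and 3 libraries allow no test of it.

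A single isoform carried the PROCR signal. PROCR-201, the reference transcript of 1348 bases, held 99.7% of the mean FPKM of the gene, with 26.1, 21.2 and 20.9 FPKM in the control libraries and 49.1, 41.4 and 53.6 FPKM in the CTTN libraries. The 250 bases before its start, at chr20:35171822-35172071 on the plus strand (RefSeq, GRCh38.p14), are shown because PROCR was the only marker called higher, and the capitals mark the 1 match to TATAAA, which reads on the opposite strand.
PROCR promoter: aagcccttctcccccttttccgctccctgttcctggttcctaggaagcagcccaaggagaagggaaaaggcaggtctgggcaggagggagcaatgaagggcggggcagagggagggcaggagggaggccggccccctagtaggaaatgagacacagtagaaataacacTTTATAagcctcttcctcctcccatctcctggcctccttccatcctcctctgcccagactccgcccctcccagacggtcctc
Such a match was present in 10.7% of 35116 promoter windows of the same length. No match was found in the PROCR window to GCGTG, to the TCF/LEF motif CTTTGAT or CTTTGAA, to the AP-1 motif TGANTCA or to the GC box GGGGCGGGG, each searched on both strands.

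ABCG2 encodes the breast cancer resistance protein, an ATP-driven pump that exports drugs and the dye used to define side-population cells. Its row spans chr4:88090264-88231322. Counts of ABCG2 were 311, 335 and 334 in the control libraries and 155, 142 and 158 in the CTTN libraries. The groups lay far apart relative to their spread, and the level fell from 2.56 ± 0.162 to 1.14 ± 0.121 FPKM (SD, n = 3 each). The log2 fold change was -1.11 (SE 0.10, 95% interval -1.35 to -0.86, adjusted p = 0.00484 by the edgeR quasi-likelihood test), a fold of 0.464. Leaving out single libraries gave log2 fold changes of -1.15 to -1.07. The adjusted p was 0.0556, 0.0569 and 0.0532 without control replicate 2, control replicate 3 or CTTN replicate 1, so that the call was lost narrowly, and it was 0.0467, 0.000892 and 0.00103 without control replicate 1, CTTN replicate 2 or CTTN replicate 3.

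The fragments of ABCG2 were divided between a pair of isoforms. The reference transcript ABCG2-201, of 4479 bases, held 44.9% of the gene's mean FPKM, and an assembled isoform of 4076 bases that resembles it held 42.9%. The counts of ABCG2-201 were 135, 231 and 134 in the control libraries and 52.2, 110 and 66.1 in the CTTN libraries, and those of the assembled isoform were 173, 77.0 and 197 against 95.7, 13.7 and 92.3. The split between both forms varied between libraries more than the gene total did, and neither form alone passed the isoform test (adjusted p = 0.767 and 0.778, edgeR). The window before the start of ABCG2-201, at chr4:88158640-88158889 on the minus strand, is shown because ABCG2 was the only marker called lower, with capitals on the matches to GCGTG, the core of the element that the aryl hydrocarbon receptor recognises.
ABCG2 promoter: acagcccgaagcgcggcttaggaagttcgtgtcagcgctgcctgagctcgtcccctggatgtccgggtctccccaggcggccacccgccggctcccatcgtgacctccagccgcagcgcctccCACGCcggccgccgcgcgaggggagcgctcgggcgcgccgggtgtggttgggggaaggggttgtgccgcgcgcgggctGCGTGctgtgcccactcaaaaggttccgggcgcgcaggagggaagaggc
There were 2 such matches, 1 of them on the opposite strand, and 32.2% of the 35116 windows held at least 1. The other motifs searched in the PROCR window had no match in this window. Of the further ABCG2 windows, those at chr4:88231627-88231876 and chr4:88159291-88159540 had no match to GCGTG. Those at chr4:88158860-88159109 and chr4:88158910-88159159 had 2 each. The assembled isoform was assigned a different start, and no window is shown for it. Windows from RefSeq were matched for 9 of the 10 markers, 20 windows in all, and EPCAM was not matched.

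CD44 is the receptor for hyaluronan, and CD24 is a small, heavily glycosylated surface protein, and the pair of them gives the classical sorting definition. Counts of CD44 were 165, 158 and 190 in the control libraries and 221, 217 and 208 in the CTTN libraries. All CTTN values were higher, by a log2 fold change of 0.33 (SE 0.12, 95% interval 0.06 to 0.60), and the adjusted p of 0.125 (edgeR) missed the threshold. Counts of CD24 were 49577, 48242 and 46406 in the control libraries and 58249, 51532 and 63321 in the CTTN libraries. CD24 too was higher in every CTTN library, with a log2 fold change of 0.26 (SE 0.10, 95% interval 0.03 to 0.50) and an adjusted p of 0.142 (edgeR). Without CTTN replicate 2, in a fit that called 6953 genes in all, CD24 passed with a log2 fold change of 0.33 and an adjusted p of 0.0104. CD24 has near-identical copies elsewhere in the genome, and the rows of CD24P1 and CD24P2 were at 0 counts, so that how fragments shared with such copies were assigned could affect its level.

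Because CD44 and CD24 both lay higher in CTTN cells, their ratio was computed for each library. There were 3.33, 3.27 and 4.09 CD44 counts per 1000 CD24 counts in the control libraries and 3.79, 4.21 and 3.29 in the CTTN libraries. These ranges overlapped, with means of 3.56 ± 0.454 and 3.76 ± 0.460 (SD, n = 3 each). No shift of CD44 relative to CD24 was therefore seen beyond the spread between libraries.

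Isoforms of CD44 were measured thinly, since the gene had 48 isoforms in the deposited table, 47 of them with some FPKM, for about 158 to 221 counts. CD44-218 held 11.3% of the mean FPKM and an isoform matched to CD44-209, of 2292 bases, held 10.5%. The latter was at 31.8, 34.9 and 1.0 counts in the control libraries and at 39.4, 39.0 and 6.76 in the CTTN libraries, so that 1 library in each group was low. For the reference transcript CD44-208, of 5732 bases, the estimates were 21.8, 19.1 and 29.7 counts in the control libraries and 0 in all CTTN libraries, at least 7.85-fold lower when the CTTN libraries are set to a floor of 3 counts each. CD44-208 had an unadjusted p of 0.00165 and an adjusted p of 0.488 in edgeR and an adjusted p of 0.000675 in DESeq2. Of 158 isoforms of the markers, 28 were tested, and edgeR called 0 of them and 0 of 58275 isoforms in all, 0% (3638 isoforms, 6.24%, and 4 of the markers' 28 had an unadjusted p under 0.05). DESeq2 called 1180 isoforms, 2.02%, and of the markers' isoforms it called CD44-208 and PROCR-201. CD24 was dominated by 1 isoform with 97.3% of its FPKM.

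EPCAM, PROM1 and ITGA6 are the remaining surface markers, and their levels in CTTN cells lay within or around those of the controls. EPCAM, an epithelial adhesion molecule, had counts of 8400, 8237 and 7890 in the control libraries and 8594, 6757 and 10500 in the CTTN libraries. The control range lay inside the wider CTTN range, and the log2 fold change was 0.08 (SE 0.16, 95% interval -0.29 to 0.44, adjusted p = 0.744, edgeR). On the FPKM scale the sign of this small difference changed, as described under the processing alternatives. EPCAM-201 held 93.6% of the gene's FPKM.

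PROM1, also called CD133, is a protein of membrane protrusions. Its row also carries the name of the neighbouring gene FGFBP2, but isoforms named PROM1 took 98.8 to 100% of the row's counts. Counts were 165, 147 and 154 in the control libraries and 149, 166 and 160 in the CTTN libraries. The groups overlapped fully, with a log2 fold change of 0.03 (SE 0.12, 95% interval -0.25 to 0.30, adjusted p = 0.883, edgeR). Among the isoforms of PROM1, PROM1-207 held 25.1% of the FPKM, PROM1-215 20.9%, an assembled isoform of 3501 bases that resembles PROM1-210 19% and PROM1-216 12.3%. None of them kept a steady share, and the assembled isoform, for example, was between 0.00429 and 0.612 FPKM within the CTTN group.

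ITGA6, the integrin alpha6 subunit that pairs with a beta subunit to bind laminin, was barely expressed. Its counts were 8.25, 18.3 and 17.2 in the control libraries and 13.5, 23.5 and 9.97 in the CTTN libraries. The log2 fold change of 0.10 carried an SE of 0.44 and an interval of -0.93 to 1.12 (adjusted p = 0.888, edgeR), so that no change of this gene was detectable at this depth. ALDH1A1 was lower still, at 9.29, 4.36 and 2.87 counts in the control libraries and 6.22, 8.79 and 3.32 in the CTTN libraries. It did not pass the filter on low counts, and in a fit without that filter the interval of its log2 fold change ran from -1.25 to 1.57 (adjusted p = 0.904, edgeR). The leading isoforms, an assembled isoform of 2859 bases that resembles ITGA6-201, with 37.3% of the FPKM of ITGA6, and ALDH1A1-201, with 48.2% of that of ALDH1A1, are estimates from these few fragments.

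KLF4, a zinc-finger transcription factor and one of the factors used to reprogram cells to pluripotency, was the steadiest marker. Its counts were 279, 292 and 294 in the control libraries and 288, 281 and 283 in the CTTN libraries. The log2 fold change was -0.02 (SE 0.09, 95% interval -0.23 to 0.19, adjusted p = 0.87, edgeR). The division of KLF4 into isoforms was not steady. The coding transcript KLF4-201 was at 2.25, 2.54 and 2.40 FPKM in the control libraries and at 3.11, 2.21 and 0.204 FPKM in the CTTN libraries, and KLF4-205, which retains an intron, was at 0.841, 0.458 and 0.702 FPKM against 0.00500, 0.521 and 2.83 FPKM. In CTTN replicate 3 the larger estimate belonged to KLF4-205 and in the other 5 libraries to KLF4-201. The row of the processed copy KLF4P1 was at 0 counts.

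BMI1 is a subunit of Polycomb repressive complex 1, which silences genes by modifying histone H2A. Its row is shared with the neighbouring gene COMMD3 and the read-through transcript COMMD3-BMI1, and had counts of 3055, 3012 and 2818 in the control libraries and 3138, 2910 and 3339 in the CTTN libraries. In counts the groups overlapped, whereas in FPKM the row was at 54.6, 53.1 and 50.4 in the control libraries and 55.7, 57.2 and 63.9 in the CTTN libraries, without overlap. The FPKM of all genes summed to 603634 to 624680 in the control libraries and to 704018, 605260 and 852256 in the CTTN libraries. Whether these unequal sums bear on the separation in FPKM was not tested. The log2 fold change of the whole row's counts was 0.08 (SE 0.09, 95% interval -0.13 to 0.28, adjusted p = 0.536, edgeR). Isoforms named BMI1 took 46.6 to 60.2% of the row's counts, and on their own they were at 1678, 1813 and 1618 counts in the control libraries and 1674, 1687 and 1557 in the CTTN libraries. These ranges overlapped, as did those of the isoforms named COMMD3, of which CTTN replicate 3 had the most, 1692 counts. BMI1-201 alone was at 13.5 to 17.5 FPKM over the 6 libraries, and had a log2 fold change of -0.05 (adjusted p = 0.907, edgeR).

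The genes around the markers were examined through 13 lists of 143 genes. Of these, 109 were tested, 1 was called higher and 4 were called lower by edgeR, and 104 were not called, against the 4.2% called among all genes. The median log2 fold change was -0.10 over the 109 genes and 0.01 over all genes tested. With an unadjusted p under 0.05 there were 30, of which 10 were higher and 20 lower, where 30.2% of all genes passed. DESeq2 called 14 of the list genes, where it called 14.3% of all genes, and limma on log2(FPKM + 0.1) and log2(FPKM + 1) called 2 and 1, against 0.658% and 0.541% of all genes. Each of the 5 calls was lost in edgeR fits without control replicate 1, 2 or 3 or CTTN replicate 1, where 0 of the list genes were called. These fits called only 29, 15, 30 and 18 genes in all. The fits without CTTN replicate 2 and without CTTN replicate 3 called 49 and 7 list genes, against 47.2% and 8.54% of all genes. For the counts of each list below, the shares of all genes were 4.2% in edgeR, 14.3% in DESeq2 and 30.2% unadjusted.

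Aldehyde dehydrogenases are the enzymes read by the activity assay that defines stem-like breast cancer cells. Of 19 family members, 16 were tested, and edgeR called 1, ALDH1A3, which was lower in CTTN cells. DESeq2 called 4, all lower, namely ALDH1A3, ALDH1L2, ALDH3B2 and ALDH6A1, where it called 6.92% of all genes lower. Limma called 0, and 6 genes had an unadjusted p under 0.05 in edgeR, 5 of them lower. ALDH1A3, which oxidises retinal, had counts of 3386, 3274 and 3230 in the control libraries and 2288, 2560 and 2052 in the CTTN libraries. The groups did not overlap, and the log2 fold change was -0.52 (SE 0.10, adjusted p = 0.0363, edgeR). Without control replicate 1, 2 or 3 or CTTN replicate 1 the adjusted p was 0.181, 0.191, 0.163 and 0.183. Fits without CTTN replicate 2 or 3 gave 0.00187 and 0.0134. Several rows of the family are shared with other genes, so levels were also taken from isoforms named for each gene. On that scale the mitochondrial enzyme ALDH2 was highest at 67.7 FPKM, followed by ALDH7A1 at 54.1, ALDH9A1 at 31.8 and ALDH4A1 at 31.4 FPKM. ALDH1A3 took 7.65 to 8.04% of the family's summed FPKM in the control libraries and 4.74 to 6.35% in the CTTN libraries, and ALDH1A1 took at most 0.047% in any library. The summed FPKM of the isoforms of all 19 genes was 324 to 337 in the control libraries and 327 to 352 in the CTTN libraries, which overlap. Summed over the rows of the 16 genes that share no row with another coding gene, it was 224 to 231 FPKM in the control and 215 to 221 FPKM in the CTTN libraries, lower in every CTTN library.

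The other proposed markers of breast stem or progenitor cells gave 2 calls in edgeR among 12 tested of 19 genes, both lower. Among all genes 4.2% were called by edgeR, 14.3% were called by DESeq2 and 30.2% had an unadjusted p under 0.05. DESeq2 called 3, the third being CD9, a tetraspanin, which was higher in CTTN cells with a log2 fold change of 0.37 (adjusted p = 0.0919, edgeR), and 5 had an unadjusted p under 0.05, 2 of them higher. ALCAM (CD166), an adhesion molecule, had counts of 3835, 3886 and 3937 in the control libraries and 2171, 2310 and 1922 in the CTTN libraries, with a log2 fold change of -0.87 (SE 0.09, adjusted p = 0.00672, edgeR). NRP1, a co-receptor for semaphorins and VEGF, had counts of 1313, 1300 and 1373 against 686, 799 and 561 and a log2 fold change of -0.96 (SE 0.13, adjusted p = 0.0149, edgeR). For both genes the groups were well apart. In limma with log2(FPKM + 0.1) and log2(FPKM + 1) the adjusted p was 0.0306 and 0.0292 for ALCAM and 0.0497 and 0.0566 for NRP1. Limma with no filter on low values called neither gene (adjusted p = 0.0536 for ALCAM and 0.0822 for NRP1). In the fits without control replicate 1, 2 or 3 or CTTN replicate 1, in that order, the adjusted p was 0.0614, 0.0695, 0.0689 and 0.0718 for ALCAM and 0.0881, 0.102, 0.101 and 0.105 for NRP1. Fits without CTTN replicate 2 or 3 gave 0.000585 and 0.000706 for ALCAM and 0.000648 and 0.00149 for NRP1.

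The Notch pathway, which regulates cell fate in the mammary gland, had 1 call in edgeR among 13 tested of 15 genes. DESeq2 called that gene too and limma did not, and 2 genes had an unadjusted p under 0.05. Over all genes these shares were 4.2% in edgeR and 30.2% unadjusted. DLL3, an inhibitory Notch ligand, had counts of 46.4, 34.0 and 46.9 in the control libraries and 125, 105 and 172 in the CTTN libraries, with a log2 fold change of 1.66 (SE 0.24, adjusted p = 0.0171, edgeR). This was the only list gene called higher, at a low level of 3.24 ± 1.04 FPKM in CTTN cells (SD, n = 3). Without control replicate 1, 2 or 3 or CTTN replicate 1 its adjusted p was 0.0889, 0.118, 0.101 and 0.0850. Fits without CTTN replicate 2 or 3 gave 0.00137 and 0.00462. In limma the log2 fold change of DLL3 was 1.57 with log2(FPKM + 0.1) and 1.06 with log2(FPKM + 1), with adjusted p = 0.0616 and 0.0786. The median log2 fold change of the Notch list was 0.09. In the Hedgehog list 0 of the 4 tested of 11 genes were called by edgeR, DESeq2 or limma and 0 had an unadjusted p under 0.05, and the highest, SUFU and GLI3, had mean levels of 3.83 and 2.68 FPKM with log2 fold changes of 0.02 and -0.29.

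Partners of integrin alpha6 gave 1 call in edgeR among 7 tested of 9 genes, against 4.2% of all genes. DESeq2 called that gene too and limma did not. An unadjusted p under 0.05 was found for 3 genes, against 30.2% of all genes. LAMB3, a chain of the laminin that integrins with the alpha6 subunit bind, had counts of 743, 637 and 685 in the control libraries and 472, 496 and 452 in the CTTN libraries. Every CTTN library was below every control library, with a log2 fold change of -0.54 (SE 0.10, adjusted p = 0.0298, edgeR). In the fits without control replicate 1, 2 or 3 or CTTN replicate 1, in that order, the adjusted p of LAMB3 was 0.15, 0.12, 0.15 and 0.164. Fits without CTTN replicate 2 or 3 gave LAMB3 an adjusted p of 0.00329 and 0.0172. In limma its log2 fold change was -0.40 with log2(FPKM + 0.1) and -0.32 with log2(FPKM + 1), with adjusted p = 0.21 and 0.218. Of 4 partners of EPCAM, all tested, 0 were called by edgeR, DESeq2 or limma and 0 had an unadjusted p under 0.05. CLDN7, a tight junction claudin whose row is shared with other genes, had a row level of 532 FPKM and a log2 fold change of 0.27, and FHL2, a LIM domain cofactor, was at 27.3 FPKM with a log2 fold change of 0.25.

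Around CD44, 0 of the 7 tested of 11 ligands and partners were called by edgeR, while 2 had an unadjusted p under 0.05 and DESeq2 called 2, EZR and MSN, both lower, MSN with a log2 fold change of -1.10 (adjusted p = 0.0582, edgeR). The highest were EZR, which links CD44 to actin, at 146 FPKM and a log2 fold change of -0.21 (adjusted p = 0.12, edgeR), and ESRP2, a splicing regulator of epithelial CD44 forms, at 51.8 FPKM and a log2 fold change of -0.03. In the protein C pathway around PROCR, 0 of the 5 tested of 7 genes were called by edgeR or DESeq2, and 1 had an unadjusted p under 0.05. The protease-activated receptor gene F2RL1 was at 5.11 FPKM with a log2 fold change of 0.12, and the tissue factor gene F3 was at 4.73 FPKM with a log2 fold change of 0.19. The median of that list, 0.19, was the highest of the 13.

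The drug efflux pumps related to ABCG2 had 0 calls among 7 tested of 8 genes in edgeR, with 1 at an unadjusted p under 0.05 and 1, ABCC2, called by DESeq2. ABCC2, an exporter of conjugated compounds, had counts of 1739, 1912 and 1932 in the control libraries and 928, 1305 and 598 in the CTTN libraries, which do not overlap, and a log2 fold change of -0.98 (SE 0.25, adjusted p = 0.0733, edgeR). By level, ABCC5 was highest at 57.3 FPKM with a log2 fold change of -0.42, followed by ABCC3 at 22.9 FPKM with a log2 fold change of -0.25, which was also the list's median.

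Of the other components of Polycomb repressive complex 1, 0 of 14 were called by edgeR. An unadjusted p under 0.05 was found for 4, against 30.2% of all genes. DESeq2 called 1, CBX8, which was higher with a log2 fold change of 0.40 (adjusted p = 0.103, edgeR). The chromobox genes CBX2 and CBX6 were at 101 and 30.9 FPKM with log2 fold changes of -0.04 and 0.03. The locus that BMI1 is best known to silence gave 0 calls for its 2 genes in edgeR and DESeq2 and 1 unadjusted p under 0.05, with log2 fold changes of 0.32 for CDKN2A and -0.35 for CDKN2B. The median log2 fold changes of the 2 lists were 0.01 and -0.01.

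Among pluripotency factors 0 of the 6 tested of 12 were called by edgeR or DESeq2, and 2 had an unadjusted p under 0.05. The proto-oncogene MYC was at 138 FPKM with a log2 fold change of -0.03, and LIN28B, which blocks the maturation of let-7 microRNAs, was at 1.30 FPKM with a log2 fold change of -0.45. Of the other KLF genes 0 of 12 were called by edgeR, 3 had an unadjusted p under 0.05, and DESeq2 called 1, KLF3, which was lower with a log2 fold change of -0.48 (adjusted p = 0.111, edgeR). KLF13 was at 18 FPKM with a log2 fold change of -0.12 and KLF16 at 14.3 FPKM with a log2 fold change of 0.34. Limma called 0 genes in any of these lists.

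Lists of cell type markers were read for the same libraries. Of the epithelial and HER2 genes 0 of the 7 tested of 8 were called by edgeR or DESeq2 and 1 had an unadjusted p under 0.05. Of the fibroblast genes 0 of the 1 tested of 6 passed by either tool or unadjusted, with a summed level of 2.94 to 4.30 FPKM in the CTTN libraries, which overlaps the control range. Of 4 immune genes 0 of the 1 tested passed by either tool or unadjusted, and summed levels were 0.0743 to 0.103 FPKM in the control and 0.0647 to 0.349 FPKM in the CTTN libraries, without CD68, whose row is shared with other coding genes. The basal list had 0 calls among 4 tested of 6 genes in edgeR, with 2 at an unadjusted p under 0.05, and DESeq2 called 1, ACTA2. Summed levels of the basal list were 2.90 to 3.51 and 3.79 to 4.60 FPKM in control and CTTN libraries respectively. The endothelial list gave 1 call among 2 tested of 4 genes, CDH5, which was lower with CTTN at 561, 614 and 560 counts against 194, 262 and 162 (log2 fold change -1.49, SE 0.17, adjusted p = 0.00845, edgeR), while PECAM1 and KDR, which were not tested, had 0.958 to 6.19 and 0 to 7.22 counts. Without control replicate 1, 2 or 3 or CTTN replicate 1 the adjusted p of CDH5 was 0.0648, 0.0821, 0.0689 and 0.0754. Fits without CTTN replicate 2 or 3 gave 0.000279 and 0.000938. VWF, the other endothelial gene tested, had counts of 33.0, 57.6 and 42.2 against 23.8, 34.2 and 24.4, which overlap, and a log2 fold change of -0.70 (SE 0.28, adjusted p = 0.154, edgeR). Both tested genes had an unadjusted p under 0.05, and CDH5 was called by DESeq2 and by limma with log2(FPKM + 0.1) and log2(FPKM + 1), where its log2 fold change was -1.27 and -0.95, but not by limma with no filter on low values (adjusted p = 0.0715). The summed level of the endothelial list was 1.55 to 2.19 FPKM in the CTTN libraries, lower than in every control library. PROCR is also expressed by endothelium, and the part of the endothelial genes in its result was not tested. The part of the basal genes, whose summed level was higher in every CTTN library, in the marker results was not tested.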

How the data were processed

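Poly(A) RNA of 3 control and 3 CTTN libraries of SKBR3 cells was sequenced after a stranded library preparation. Per the labels, the authors used bcl2fastq 2.20.0, Trimmomatic, STAR and Cufflinks on GRCh38, whereas the study's methods name another trimmer and hg19. The deposited loci were checked against gene positions, and 99.99% of 15762 coding genes overlapped in GRCh38 against 18.2% in GRCh37, so coordinates are given 1-based in GRCh38. The deposited tables hold estimated counts per gene and isoform, which the authors scaled by library, and FPKM values, which they normalised by length and depth. The FPKM of all genes did not sum to the same value in each library, and the sums ran from 603634 to 852256. The scale of the counts was read from the steps between the gene counts. Multiplied by it, 100% of the gene counts above 0.5 fragments, but only 15.8% of the isoform counts, were whole within 0.02 fragments or, where larger, 1e-05 of the value, so the isoform counts are estimates.

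Deposited counts were rounded to whole numbers and fitted across all genes with edgeR 4.0.16 (TMM, low counts filtered by filterByExpr, quasi-likelihood test, two-sided), with Benjamini-Hochberg adjustment and a threshold of 0.05. Isoforms were fitted the same way. Alternatives used DESeq2 1.42.0, limma 3.58.1 on log2(FPKM + 0.1) or log2(FPKM + 1) with a minimum of 0.1 FPKM in 2 libraries, other scaling, no filter, recovered whole fragments, a 1.5-fold minimum, a replicate block and each library left out. The model code was tested on simulated data. Control columns were mapped to their group only, since their names differ from the labels, and control numbers follow the authors' sample table.

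The members and lists were chosen with earlier results of these data known, and some list genes are not reported here and enter no list count. All 10 markers and CTTN are named. From each list up to 4 called genes, or otherwise the 2 with the highest mean FPKM, are named, and isoforms are named from a share of 10% of a gene's mean FPKM. Genes called by DESeq2 alone, CD44-208 and the marker genes of other cells were named after their values were seen. Summed FPKM leaves out rows shared with another coding gene. Intervals cover 95%. Promoter windows of 250 bases come from RefSeq.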

Additional observations from a re-analysis of the deposited data

How the results depend on the processing

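Across the alternatives the directions of PROCR and ABCG2 did not change, and their log2 fold changes ranged from 1.0 to 1.18 and from -1.15 to -0.74. The number of genes called by edgeR, 606, was 2069 in DESeq2, 118, 97 and 18 in limma with log2(FPKM + 0.1), log2(FPKM + 1) and no filter on low values, and 15 to 6953 with 1 library left out, the highest being without CTTN replicate 2 and the next, 1244, without CTTN replicate 3. The markers called were 0 in limma with no filter, where the adjusted p was 0.0621 for PROCR and 0.0899 for ABCG2, and 0 to 3 with 1 library left out. The isoforms called among the markers were 2 in DESeq2 and 0 to 0 with 1 library left out. The list genes called, 5, were 14 in DESeq2, 2, 1 and 0 in the 3 limma settings and 0 to 49 with 1 library left out. The CTTN log2 fold change was 1.23, 1.22 and 1.23 in limma, where it was not called, and 1.1 to 1.57 with 1 library left out. The cause of these differences was not tested.

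The numbers of the control libraries are uncertain, since the sample table and the labels differ. Under the sample table's numbers, same-numbered libraries had correlations of deviations of 0.041, 0.163 and -0.285, and other combinations reached -0.428 to 0.408, so that a pairing was not established. With the replicate number as a block, 109 genes, 2 markers and 2 list genes were called, the block fit gave PROCR and ABCG2 an adjusted p of 0.0376 each, and CTTN was at 1.30 without a call.

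EPCAM changed sign in limma, to -0.025, -0.024 and -0.025. The assembled isoform near PROM1-210 went to -0.41 and -0.038 in limma with log2(FPKM + 0.1) and log2(FPKM + 1) and to -0.88 with the replicate block, and KLF4-205 went to -0.38 in limma with log2(FPKM + 0.1) and to -0.56 with the replicate block. With 1 library left out the log2 fold change also changed sign for PROM1 (-0.013 to 0.069), EPCAM (-0.094 to 0.22), ITGA6 (-0.32 to 0.32), CD44-209 (-0.25 to 0.78), the assembled isoform near PROM1-210 (-0.93 to 0.60), PROM1-207 (-1.51 to 0.016), EPCAM-201 (-0.073 to 0.24), KLF4-205 (-1.33 to 1.30), KLF4-201 (-0.96 to 0.16) and BMI1-201 (-0.096 to 0.0086). None of these was called in any of these settings. Depth limits ITGA6 and ALDH1A1 and the isoforms of CD44 and PROM1.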
